A study of Rattus norvegicus with 372 samples.

Results

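The genes described here, 10 in number, serve fatty acid uptake and lipid droplet handling and were followed in primary rat hepatocytes: Cd36, Fabp1 and Vldlr for the entry and binding of fatty acids, Plin2, Plin4, Plin5, Cidea and Cidec for the droplet coat, and Pnpla2 and G0s2 for droplet breakdown. A gene was taken where the column name before its probe number equalled one of these 10 symbols, without regard to case. Of the 20946 gene symbols of the whole-transcriptome (WT) assay, 8 were members of this list, and 6 of them reached a mean of at least 10 counts per well (Plin2, Cidec, G0s2, Pnpla2, Fabp1 and Vldlr). Cd36 had a probe under its own name only in the smaller surrogate (ST) panel of 2604 gene symbols. Cidea had no probe column in either table and was not analysed here.

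Freshly isolated hepatocytes of male Wistar rats were cultured between layers of collagen in medium with insulin, dexamethasone, epidermal growth factor and the solvent DMSO, and were exposed to a low or a high concentration of one of 14 chemicals over 24 h. Each of the 2 batches held cells of 1 rat, the age of which was not given, with 3 wells per treatment. Batch 1 had 3 wells of DMSO vehicle and 3 wells labelled media, and batch 2 had 6 of each. Thus the wells of a batch were technical replicates, and p-values within a batch measure the spread between wells of 1 rat. The low and high concentrations were 400 and 10000 µM for acetaminophen, caffeine, isoniazid and valproic acid, 18 and 450 µM for chloramphenicol, 16 and 400 µM for diclofenac, 0.08 and 2 µM for doxorubicin, 12 and 300 µM for indomethacin, 0.6 and 15 µM for ketoconazole, 80 and 2000 µM for naproxen, 160 and 4000 µM for ranitidine, 2.4 and 60 µM for simvastatin, 4 and 100 µM for sulfasalazine, and 8 and 200 µM for WY14643, an agonist of the nuclear receptor PPARα.

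Hepatocytes take up fatty acids from blood with the help of membrane proteins such as the scavenger receptor CD36, carry them through the cytosol on the liver fatty acid binding protein FABP1, and receive triglyceride-rich lipoproteins through receptors such as VLDLR. Fatty acids that are not burned are stored as triglyceride in lipid droplets, which are coated by perilipins (PLIN) and enlarged by proteins of the CIDE family. Triglyceride is released by the lipase ATGL, encoded by Pnpla2, and the small protein G0S2 binds and inhibits that lipase. PPARα senses fatty acids in the liver, and its textbook targets include Fabp1, Cd36 and Plin2. It binds DNA with its partner RXR at a direct repeat, AGGTCA followed by any 1 base and AGGTCA again.

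Because members moved together under WY14643, the sequence before their start sites was read from the RefSeq promoters of the rat build GRCr8, in which all 10 members were found with 15 promoters. In the 250 bases before each start, both strands were compared with the 12 fixed letters of that repeat, and the best match was kept. The promoter of Fabp1 held a match with 1 mismatch at bases -77 to -65, on the strand opposite to the gene, and a match with at most 1 mismatch stood in 0.368% of all 33469 rat promoters. The 2 sequences shown are the stretches around the best match of Fabp1, the member with the widest range of levels, and of G0s2, whose best match had 3 mismatches, a count that 21.4% of all promoters reached or bettered. Capitals mark the match, and the sequences are printed 5′ to 3′ on the strand of the gene, from chr4:104749223-104749315 (plus strand) and chr13:107336007-107336099 (minus strand).
Fabp1: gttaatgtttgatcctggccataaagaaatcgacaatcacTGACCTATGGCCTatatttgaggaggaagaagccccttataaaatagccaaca
G0s2: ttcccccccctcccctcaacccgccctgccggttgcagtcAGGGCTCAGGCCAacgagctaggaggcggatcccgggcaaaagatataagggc
Among the other members, the best match had 3 mismatches for Plin4 and Plin5, 4 for Plin2, Cidec, Cd36 and Vldlr, and 5 for Cidea and Pnpla2. At most 4 mismatches were reached by 74.5% of all promoters. These are matches of letters in a short window, not binding sites.

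Read depth of the WT assay ranged from 2709504 to 8948654 reads per well in batch 1 and from 2289425 to 8975207 in batch 2, and that of the ST assay from 558190 to 2009222 and from 984283 to 2210264. All 7 hepatocyte markers with a probe passed the filter, and their summed level was 39626 CPM (the usual scaling of counts to the library total) in the vehicle wells of batch 1 and 43012 CPM in batch 2. Summed markers of endothelial cells (4.12 and 3.30 CPM) and adipocytes (4.85 and 3.58 CPM) were near 0, and the adipocyte genes Lep, Plin1 and Retn were under 1 count per well on average. Summed cholangiocyte markers were at 40.8 and 45.6 CPM and those of Kupffer cells and leukocytes at 70.9 and 67.8 CPM. Most of the cholangiocyte sum was Epcam (32.1 and 40.5 CPM), while Krt19 was at 0.24 and 0.33 CPM and Krt7 at 0. Cd14 gave 29.4 and 35.2 CPM of the Kupffer cell and leukocyte sum, while Ptprc was at 0.36 and 0.42 CPM. Sums are over all listed markers with a probe, of which 5 of 8 for Kupffer cells and leukocytes and 3 each for cholangiocytes and stellate cells passed the filter and were tested. Stellate markers were higher in the vehicle of batch 1 (139.6 CPM) than in that of batch 2 (44.6 CPM). In batch 1, vehicle wells stood only on one plate, so that for acetaminophen, chloramphenicol, indomethacin, ketoconazole, sulfasalazine and WY14643 the plate and the treatment cannot be told apart in that batch. Lysates are bulk samples, in which fewer cells of a type and less RNA per cell cannot be told apart.

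Each treatment was compared with the vehicle wells of its own batch by the quasi-likelihood test of edgeR, and a gene was called higher or lower when its Benjamini-Hochberg adjusted p, over all 10191 genes tested, was under 0.05 in both batches with the same sign. Changes are log2 fold changes with their standard error (SE), given for batch 1 and then batch 2, after TMM scaling, whereas levels are CPM of the library total. The scaling mattered most at 10000 µM acetaminophen, where the median change of all genes was -0.44 under library totals and -0.02 under TMM, and at 8 µM WY14643, where it was -0.31 and -0.02.

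At the high concentrations, 34 of 84 tests of the 6 members were called higher (40.5%) and 27 lower (32.1%), against 14.3% higher and 14% lower for all genes over the same 14 comparisons. At the low concentrations, 13 of 84 were higher (15.5%) and 1 was lower (1.19%), against 1.93% and 1.44% of all genes. Cd36, in the ST assay, was called higher at 7 high and 4 low concentrations and lower at 2 high concentrations, where 17.1% of ST genes were called higher and 18.5% lower at high, and 2.99% and 2.07% at low concentrations. Pnpla2 was the only member that was never called lower in the 28 treatments, and Fabp1 was called most often, higher at 5 and lower at 8 high concentrations.

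**Figure D1:**
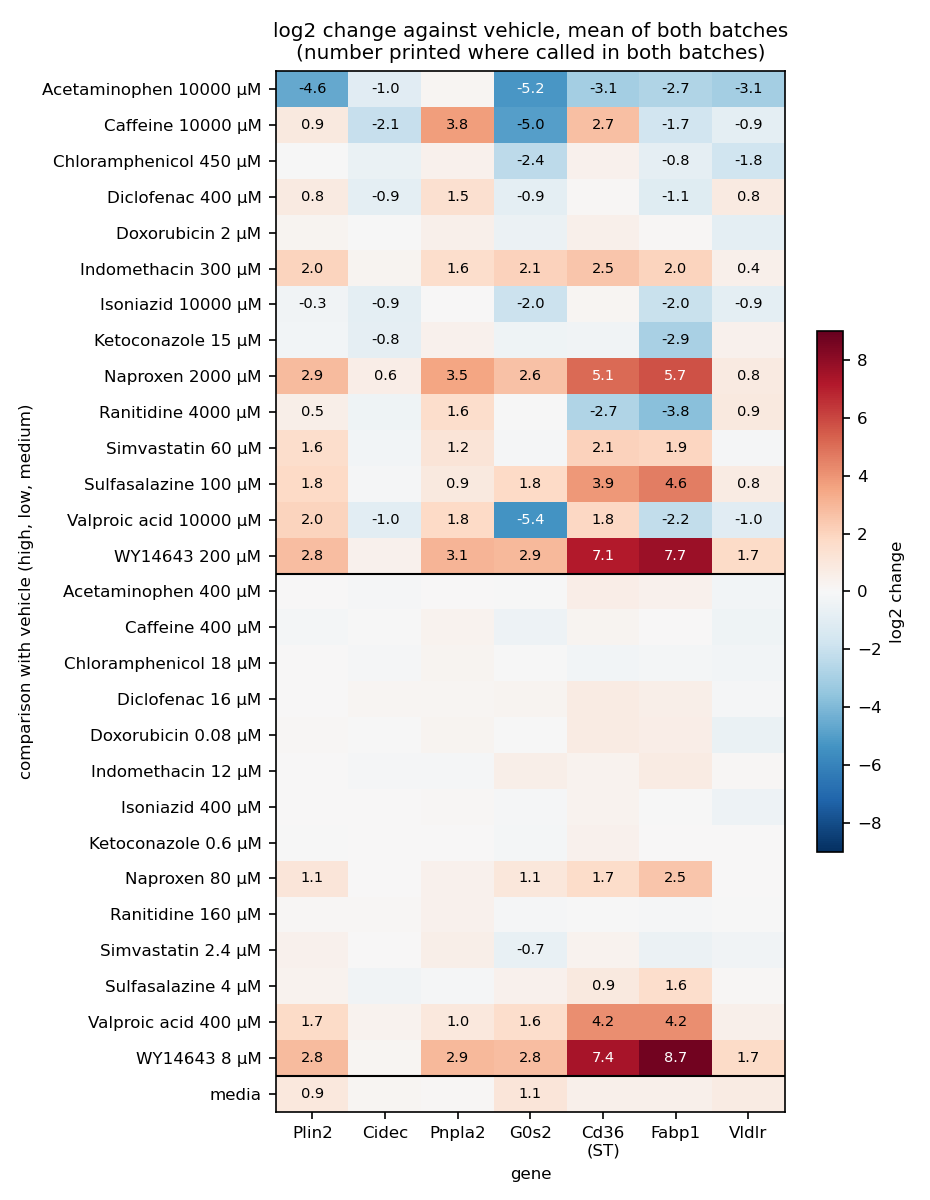
Heat map of the log2 change against vehicle (colour scale, mean of both batches) for 6 members in the WT assay and Cd36 in the ST assay (columns) in 28 treatments and media (rows), with the value printed where it was called in both batches. The rows of WY14643 and of 2000 µM naproxen are red for nearly every gene, while that of 10000 µM acetaminophen is blue for all but Pnpla2.

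WY14643 raised 5 of the 6 members (Fabp1, G0s2, Plin2, Pnpla2 and Vldlr) at both 8 µM, where 29.9% of all genes were called, and 200 µM, where 29% were. Naproxen at 2000 µM raised all 6 (29.2% of all genes called) and at 80 µM raised Fabp1, G0s2 and Plin2 (3.97%). Indomethacin at 300 µM (30.3%) and sulfasalazine at 100 µM (12.9%) each raised the same 5 genes that WY14643 did, and 4 µM sulfasalazine raised Fabp1 (0.824%). Simvastatin at 60 µM raised Fabp1, Plin2 and Pnpla2 (7.74%). With indomethacin 2 of 7 hepatocyte markers were higher and 1 lower, with a mean sum of 28358 and 25829 CPM in the 2 batches beside 39626 and 43012 CPM in vehicle. Of 5 Kupffer cell and leukocyte markers 2 were lower and 1 higher there, and 1 of 3 stellate markers was lower, with a sum over all listed of 69.8 and 19.1 CPM. Of 3 cholangiocyte markers 1 was lower, and all listed summed to 18.8 and 20.9 CPM beside 40.8 and 45.6 CPM in vehicle. Their part in the indomethacin result was not tested.

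With valproic acid, Fabp1 and G0s2 moved in opposite directions at the 2 concentrations, and Plin2 and Pnpla2 were higher at both. At 400 µM it raised Fabp1, G0s2, Plin2 and Pnpla2 and lowered none (11.1% of all genes called), whereas at 10000 µM Plin2 and Pnpla2 were higher and Cidec, Fabp1, G0s2 and Vldlr lower (43%). Caffeine at 10000 µM showed the same split, with Plin2 and Pnpla2 higher and the other 4 lower (42.2%). Diclofenac at 400 µM raised Plin2, Pnpla2 and Vldlr and lowered Cidec, Fabp1 and G0s2 (49.7%), and ranitidine at 4000 µM raised the same 3 genes and lowered Fabp1 (39.3%). Cell type markers moved with these treatments: of 7 hepatocyte markers, 7 were lower at 10000 µM valproic acid and at 400 µM diclofenac, 6 at 4000 µM ranitidine and 4 at both 2000 µM naproxen and 10000 µM caffeine, and 1 was higher with caffeine. With diclofenac the mean sum of the hepatocyte markers was 7838 CPM in batch 2, the lowest of any treatment in either batch, beside 43012 CPM in vehicle. Of 5 Kupffer cell and leukocyte markers, 4 were lower with valproic acid, 3 were lower and 1 higher with caffeine, 3 were lower and 2 higher with ranitidine, 2 were lower and 1 higher with diclofenac, and 1 was lower and 1 higher with naproxen. The mean sum of all 8 listed markers of these cells was 133.8 and 127 CPM with caffeine and 134.5 and 133.9 CPM with ranitidine, above the 70.9 and 67.8 CPM of vehicle, and 38.0 and 34.5 CPM with valproic acid. Of 3 stellate markers, 3 were lower with ranitidine, 2 each with valproic acid, caffeine and diclofenac and 1 with naproxen, and none was higher. The mean sum of all listed stellate markers was 39.0 and 11.4 CPM with caffeine beside 139.6 and 44.6 CPM in vehicle. All listed cholangiocyte markers summed to 8.80 and 8.62 CPM with diclofenac and to 16.0 and 10.9 CPM with naproxen, beside 40.8 and 45.6 CPM in vehicle, and of 3 tested 2 and 1 were lower. Of the cholangiocyte markers 1 was higher with valproic acid, and with ranitidine 1 was higher and 1 lower. Adipoq, the adipocyte marker that passed the filter, was higher with valproic acid and ranitidine and lower with caffeine and diclofenac, and all 5 adipocyte markers summed to 13.3 and 7.86 CPM with valproic acid beside 4.85 and 3.58 CPM in vehicle. The part of these markers in the members' changes was not tested.

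Decreases without any increase were observed for the remaining high concentrations that moved a member. Acetaminophen (61.1% of all genes called) and isoniazid (14.4%) at 10000 µM each lowered 5 members and left Pnpla2 uncalled. Chloramphenicol at 450 µM lowered Fabp1, G0s2 and Vldlr (7.25%), and ketoconazole at 15 µM lowered Cidec and Fabp1 (25.5%). Of 7 hepatocyte markers, 3 were lower with acetaminophen, 4 with isoniazid, 3 with chloramphenicol and 5 with ketoconazole, and none was higher. Against 39626 and 43012 CPM in vehicle, their mean sum in the 2 batches was 29002 and 27252 CPM with isoniazid, 26847 and 23905 CPM with chloramphenicol, and 20353 and 22643 CPM with ketoconazole. Of the other markers, 2 of 5 of Kupffer cells and leukocytes were higher and 1 lower with ketoconazole, 1 of 3 stellate markers was lower with both ketoconazole and isoniazid, and 1 of 3 cholangiocyte markers was higher with isoniazid. Their part in these changes was not tested. With 2 µM doxorubicin, no member was called by edgeR in the WT assay (4.56% of all genes), 2 had an unadjusted p under 0.05 in both batches with the same sign (G0s2 and Vldlr, both lower), and DESeq2 called 0. The ST assay called G0s2 lower there, with a mean log2 change of -0.59 beside -0.53 in the WT assay.

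Of the other low concentrations, 2.4 µM simvastatin lowered G0s2 (0.52% of all genes called). In the WT assay no member was called by edgeR or by DESeq2 at 400 µM acetaminophen (0.0687% of all genes), 400 µM caffeine (0.00981%), 18 µM chloramphenicol (0.00981%), 16 µM diclofenac (0.0393%), 0.08 µM doxorubicin (0%), 12 µM indomethacin (0.589%), 400 µM isoniazid (0.00981%), 0.6 µM ketoconazole (0.128%) or 160 µM ranitidine (0.0294%). Over these 9 comparisons, 5 of 54 member tests had an unadjusted p under 0.05 in both batches with the same sign. The media wells differed from vehicle in Plin2 and G0s2, both higher (1.26% of all genes called).

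Some small changes against vehicle were lost in edgeR fits without 1 replicate number, and the larger adjusted p of the batches is given here. Leaving out a treated number removed that well of every treatment and of media in both batches. Leaving out a vehicle number removed a vehicle well of each batch, or of batch 2 alone for replicates 4 to 6. Such fits also change the spread shared by all wells of a batch, so a loss does not show that a call rested on 1 well. Plin2 with 10000 µM isoniazid was lost without treated replicate 2 or 3 or vehicle replicate 1, 4, 5 or 6 (p between 0.0545 and 0.221), and Fabp1 with 450 µM chloramphenicol without treated replicate 2 or 3 or vehicle replicate 1 or 2 (0.0659 to 0.343). Vldlr with 300 µM indomethacin was lost without treated replicate 2 or 3 or vehicle replicate 1 or 3 (0.0547 to 0.121). Pnpla2 was lost with 400 µM valproic acid without treated replicate 2 (0.245) or vehicle replicate 3 (0.0946), and with 100 µM sulfasalazine without treated replicate 1 (0.0556). G0s2 with 400 µM diclofenac was lost without vehicle replicate 2 (0.0662), and Cd36 with 4 µM sulfasalazine without treated replicate 1 or 3 or vehicle replicate 1, 2 or 3 (0.0699 to 0.288).

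Cd36, the fatty acid translocase and scavenger receptor, was read in the ST assay. Its ST probe carries the same number as the WT probe named RGD1565355. RefSeq lists that name for the neighbouring Cd36-like gene, so it is uncertain which of the 2 genes was read. The 2 readouts had a Pearson's r of 0.985 over all wells, whose lysates both assays shared. In vehicle, Cd36 was at 51.7, 55.6 and 56.4 CPM in batch 1 and at 20.4 to 45.7 CPM (median 34.2) in batch 2. At 8 µM WY14643 its wells held 3994, 4606 and 5139 CPM in batch 1 and 4886, 5385 and 6547 CPM in batch 2. Every treated well lay far above every vehicle well of its batch. The log2 change was 7.0 (SE 0.29) and 7.80 (SE 0.25), with edgeR adjusted p of 1.1e-32 and 1.7e-42. At 200 µM WY14643 the wells held 2819, 3482 and 3582 CPM, and 4789, 5556 and 5675 CPM, again with no overlap with vehicle. That change was 6.47 (SE 0.28) and 7.78 (SE 0.25), with adjusted p of 2.8e-31 and 1.8e-42.

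Cd36 was also raised by 2000 µM naproxen (4.64, SE 0.27, and 5.6, SE 0.24), 400 µM valproic acid (3.91, SE 0.26, and 4.45, SE 0.23) and 100 µM sulfasalazine (3.63, SE 0.26, and 4.12, SE 0.23). Unlike Fabp1 and G0s2, it stayed above vehicle at 10000 µM caffeine (2.77, SE 0.26, and 2.71, SE 0.24) and at 10000 µM valproic acid (2.00, SE 0.25, and 1.70, SE 0.25). It was lowered by 10000 µM acetaminophen (-3.72, SE 0.43, and -2.42, SE 0.41) and by 4000 µM ranitidine (-1.57, SE 0.33, and -3.80, SE 0.49). In the ranitidine wells of batch 2 that decrease rested on 1 to 7 counts per well.

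Fabp1, the cytosolic carrier of fatty acids in the liver, had the largest change of any member. Vehicle wells held 40.5, 44.6 and 63.0 CPM in batch 1 and 18.3 to 26.2 CPM (median 22.7) in batch 2. At 8 µM WY14643 the wells held 13266, 15457 and 16019 CPM in batch 1 and 7792, 8110.1 and 8755 CPM in batch 2. The mean was thus 302-fold and 369-fold that of vehicle on the CPM scale, and no treated well came near a vehicle well. The log2 change was 8.63 (SE 0.28) and 8.73 (SE 0.23), with edgeR adjusted p of 1.02e-38 and 5.74e-47. At 200 µM WY14643 Fabp1 was at 8037, 8069 and 9259 CPM, and at 3426, 4308 and 4555 CPM, also apart from vehicle in every well. The change there was 7.75 (SE 0.27) and 7.71 (SE 0.22), with adjusted p of 8.3e-37 and 2.5e-44.

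The other increases of Fabp1 were found with 2000 µM naproxen (5.49, SE 0.25, and 5.97, SE 0.21), 100 µM sulfasalazine (5.31, SE 0.24, and 3.94, SE 0.20), 400 µM valproic acid (4.27, SE 0.23, and 4.16, SE 0.20), 80 µM naproxen (2.97, SE 0.22, and 2.03, SE 0.21), 300 µM indomethacin, 60 µM simvastatin and 4 µM sulfasalazine. The lowest levels were seen with 4000 µM ranitidine in batch 1, at 0.299, 0.837 and 1.07 CPM or 2 to 6 counts per well, whereas batch 2 held 4.24, 6.46 and 9.47 CPM. Both sets lay below the vehicle wells of their batch, and the change was -5.93 (SE 0.37) and -1.65 (SE 0.26). Ketoconazole at 15 µM (-3.40, SE 0.28, and -2.42, SE 0.29) and 10000 µM acetaminophen (-3.84, SE 0.32, and -1.59, SE 0.27) followed. None of the 8 decreases of Fabp1 was called in the ST assay, where its vehicle level was 7.28 and 2.66 CPM. The mean change was negative there for all 8, between -0.77 and -3.30, beside -0.81 to -3.79 in the WT assay.

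Vldlr, a lipoprotein receptor, moved less. Vehicle wells held 34.6, 35.8 and 38.6 CPM in batch 1 and 33.6 to 45.6 CPM (median 42.1) in batch 2. Its largest change was the decrease at 10000 µM acetaminophen, to 2.15, 2.20 and 2.62 CPM and to 4.50, 4.85 and 5.38 CPM. These wells were all below vehicle, with a log2 change of -3.52 (SE 0.21) and -2.62 (SE 0.18) and edgeR adjusted p of 3.7e-24 and 2.3e-22. With 8 µM WY14643 it was at 90.7, 95.9 and 98.3 CPM, and at 99.0, 110.1 and 112 CPM, all above vehicle. The change was 1.77 (SE 0.15) and 1.60 (SE 0.13), with adjusted p of 5.6e-17 and 1.3e-17. With 200 µM the wells held 87.8, 98.0 and 115 CPM, and 106, 118 and 119.8 CPM, and the change was 1.79 (SE 0.15) and 1.68 (SE 0.13), with adjusted p of 2.6e-17 and 1.3e-18. Both concentrations of WY14643 thus gave levels that overlapped each other and not vehicle. Chloramphenicol at 450 µM lowered Vldlr by 1.68 (SE 0.16) and 1.87 (SE 0.16) on the log2 scale. Its WT and ST probes had different numbers, and their r over the wells was 0.944.

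**Figure D2:**
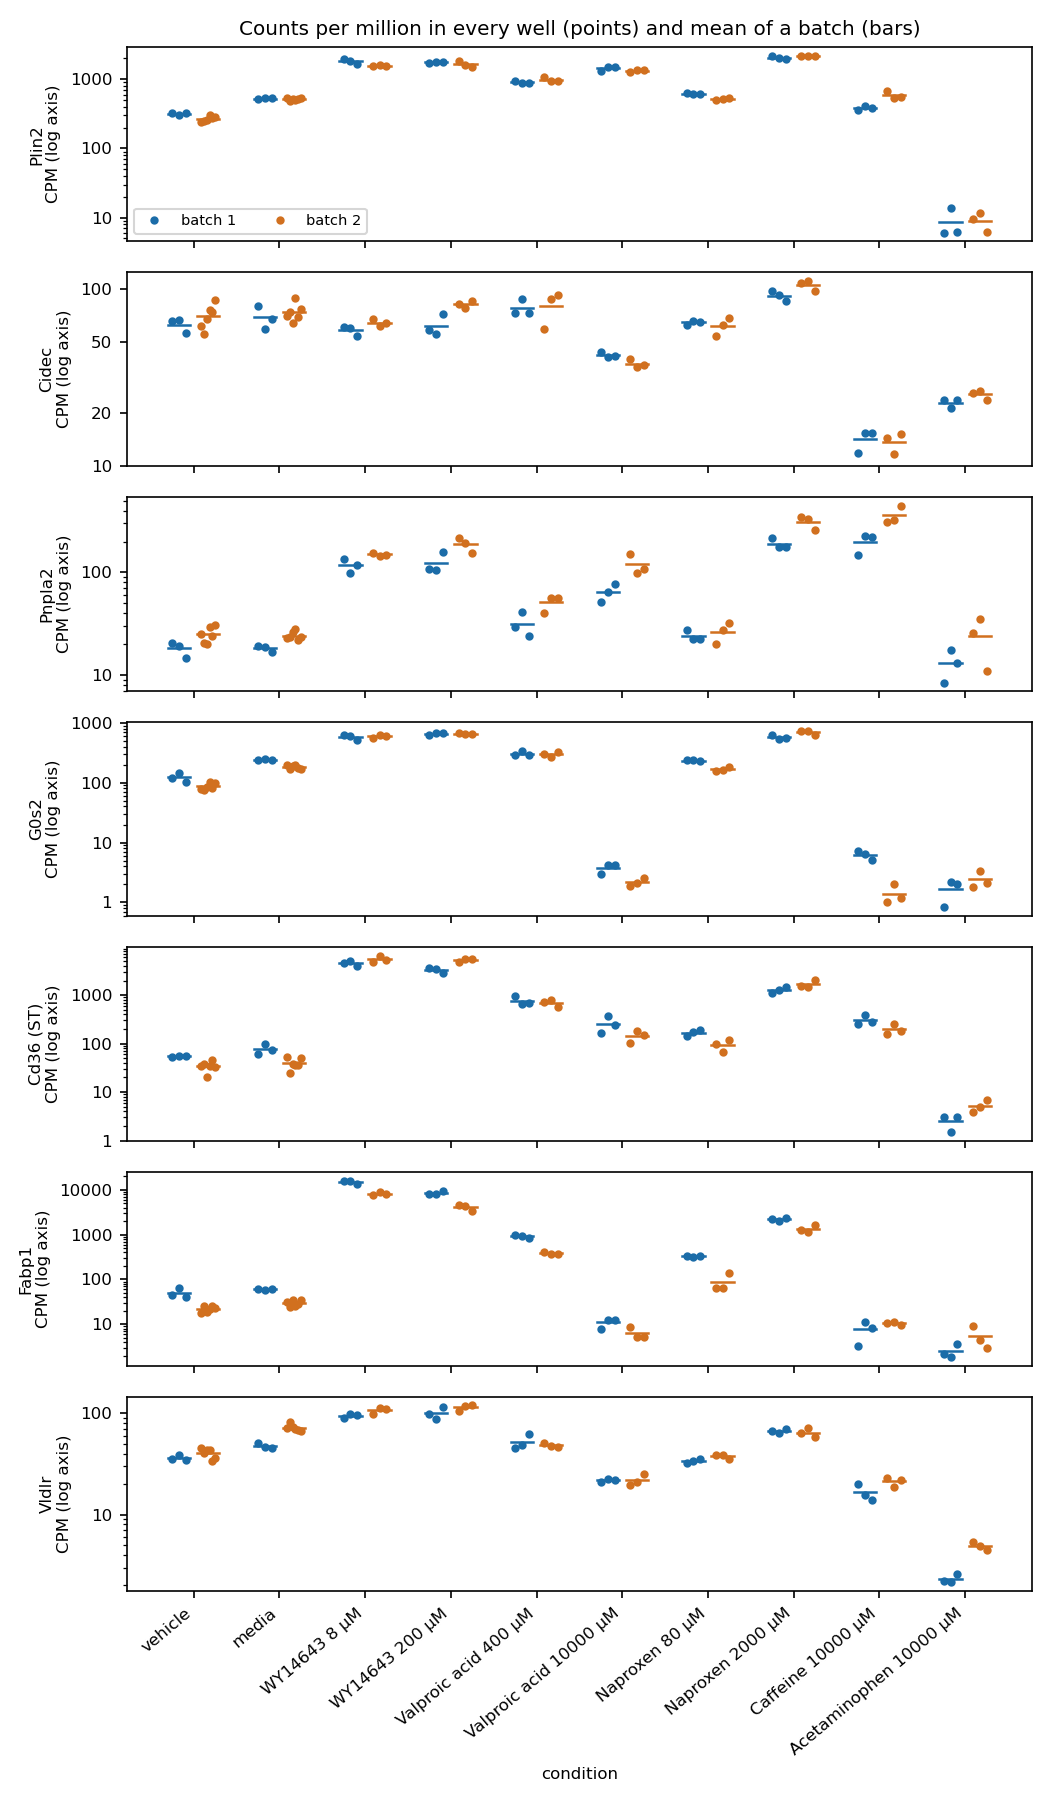
Level of each member in every well (CPM, log axis) in 10 conditions, with points for wells, bars for the mean of a batch, and batch 1 and batch 2 side by side, for 6 genes of the WT assay and Cd36 of the ST assay. The wells of both WY14643 concentrations lie above all vehicle wells for every gene but Cidec.

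Plin2 encodes the perilipin that coats droplets in hepatocytes and was the droplet coat gene that responded to most treatments. It was called higher at 9 and lower at 2 of the high concentrations, and higher at 3 low concentrations. Vehicle wells held 299, 323 and 329.6 CPM in batch 1 and 244 to 302 CPM (median 269) in batch 2. At 8 µM WY14643 Plin2 was at 1660.4, 1845 and 1959 CPM, and at 1528, 1568 and 1584 CPM. All 6 wells were above vehicle, with a log2 change of 2.91 (SE 0.13) and 2.73 (SE 0.09) and edgeR adjusted p of 4.3e-31 and 2.1e-40. At 200 µM it was at 1695, 1771 and 1791 CPM, and at 1517, 1628 and 1813 CPM, and the change was 2.80 (SE 0.13) and 2.79 (SE 0.09), with adjusted p of 3.3e-30 and 4.9e-41. The highest levels stood with 2000 µM naproxen, where the change was 2.70 (SE 0.13) and 3.05 (SE 0.09).

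The largest change of Plin2 was its loss at 10000 µM acetaminophen. The wells held 6.04, 6.24 and 13.7 CPM in batch 1 and 6.08, 9.39 and 11.5 CPM in batch 2, while wells at 400 µM held 294, 314 and 322 CPM, and 293, 296 and 299 CPM. The high concentration was thus below both vehicle and the low concentration in every well, and the low concentration overlapped vehicle. Against vehicle the change was -4.68 (SE 0.15) and -4.50 (SE 0.13), with edgeR adjusted p of 2.9e-38 and 5.9e-44. Against 400 µM it was -4.64 (SE 0.15) and -4.66 (SE 0.14), with adjusted p of 5.5e-38 and 2.8e-43. In these wells 3 of 7 hepatocyte markers were called lower and none higher, and their sum was 23310.0 to 26703 CPM in batch 1 and 27078 to 36409 CPM in batch 2. Of the other markers, 3 of 3 stellate markers were lower, and of 5 Kupffer cell and leukocyte markers 3 were lower and 1 was higher. Their part in the result was not tested. Plin2 stayed above vehicle at 10000 µM valproic acid (2.00, SE 0.12, and 2.01, SE 0.09), where G0s2, Fabp1, Vldlr and Cidec were lower.

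The other perilipins on the list were barely detected. Plin4 had a mean of 0.457 counts per well, 0 counts in 142 wells and at most 6 in any well, and Plin5 had 0.435 counts, 0 in 133 wells and at most 5. In the ST assay Plin5 had 0.156 counts and 0 in 164 wells, and Plin4 had no probe. Neither gene passed the filter, so no change of either was tested in the main fit.

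Cidec, which promotes the fusion of droplets, had the narrowest range of the 6 members tested. Vehicle wells held 56.1, 65.9 and 66.3 CPM in batch 1 and 55.3 to 85.9 CPM (median 70.7) in batch 2. Caffeine at 10000 µM lowered it most, to 11.8, 15.4 and 15.4 CPM and to 11.8, 14.4 and 15.2 CPM, with no overlap with vehicle. The change was -1.93 (SE 0.18) and -2.24 (SE 0.15), with edgeR adjusted p of 6.76e-15 and 3.75e-22. Cidec was the one member that WY14643 did not move past the threshold in both batches, with changes of 0.28 (SE 0.16) and 0.08 (SE 0.13) at 8 µM and 0.31 (SE 0.16) and 0.40 (SE 0.13) at 200 µM. Its only increase was found with 2000 µM naproxen (0.56, SE 0.16, and 0.64, SE 0.13), and no low concentration moved it.

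Pnpla2, the gene of the main triglyceride lipase, moved in 1 direction only. It was called higher at 9 high and 2 low concentrations and lower at none, and its mean change was above 0 at all 14 high concentrations. Vehicle wells held 14.8, 19.3 and 20.8 CPM in batch 1 and 20.2 to 30.7 CPM (median 24.7) in batch 2. Caffeine at 10000 µM gave the highest level, 149, 219 and 225 CPM, and 308, 327 and 446 CPM. Each of these wells was above every vehicle well, with a change of 3.63 (SE 0.25) and 3.96 (SE 0.20) and edgeR adjusted p of 4.5e-21 and 4.8e-29. With 8 µM WY14643 Pnpla2 was at 99.1, 118 and 137 CPM, and at 145, 149 and 156 CPM, and the change was 3.06 (SE 0.24) and 2.78 (SE 0.20), with adjusted p of 1.6e-17 and 1.5e-20. With 200 µM it was at 106, 108 and 159.9 CPM, and at 155, 192 and 218 CPM, and the change was 3.09 (SE 0.24) and 3.09 (SE 0.20), with adjusted p of 8.1e-18 and 5.4e-23. No WY14643 well overlapped vehicle. Naproxen at 2000 µM gave 3.38 (SE 0.24) and 3.68 (SE 0.20). At 10000 µM acetaminophen, where 5 members fell, Pnpla2 changed by 0.00 (SE 0.26) and 0.32 (SE 0.22), a value whose sign depended on the scaling.

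G0s2 encodes the inhibitor of that lipase and had the largest mean decrease against vehicle of the 6 members, at 10000 µM valproic acid (-5.40 after TMM scaling). The mean change of G0s2 at 10000 µM acetaminophen was close to it (-5.20), and on the CPM scale its level was lowest with acetaminophen. Vehicle wells held 104, 121 and 145 CPM in batch 1 and 75.5 to 102 CPM (median 83.8) in batch 2. At 10000 µM valproic acid its wells held 3.00, 4.19 and 4.24 CPM, and 1.87, 2.14 and 2.56 CPM, whereas at 400 µM they held 286, 287 and 341 CPM, and 269.9, 305 and 320.0 CPM. All wells of the high concentration were below vehicle and all wells of the low concentration above it. Against vehicle the change was -5.21 (SE 0.28) and -5.58 (SE 0.21) at 10000 µM, and 1.35 (SE 0.20) and 1.83 (SE 0.12) at 400 µM. High against low gave -6.56 (SE 0.29) and -7.41 (SE 0.22), with edgeR adjusted p of 6.04e-31 and 1.14e-42, the largest change of G0s2. At 10000 µM valproic acid 7 of 7 hepatocyte markers were called lower, with sums of 18765 to 22646 CPM and of 15891 to 17550.4 CPM, and 4 of 5 Kupffer cell and leukocyte markers were lower. Their part in the result was not tested.

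G0s2 was also lowered strongly by 10000 µM acetaminophen (-5.66, SE 0.32, and -4.75, SE 0.20) and 10000 µM caffeine (-4.10, SE 0.26, and -5.83, SE 0.22), where its wells held 3 to 28 and 8 to 41 counts. WY14643 at 8 µM raised it to 517, 601 and 629 CPM, and to 549, 596 and 632 CPM, a change of 2.62 (SE 0.21) and 2.97 (SE 0.12) with edgeR adjusted p of 1.76e-17 and 2.01e-34. At 200 µM the wells held 614, 662 and 672 CPM, and 639.8, 642 and 687 CPM, a change of 2.73 (SE 0.21) and 3.09 (SE 0.12) with adjusted p of 3.2e-18 and 1.6e-35. None of these wells overlapped vehicle. The decrease at 2.4 µM simvastatin was small (-0.90, SE 0.21, and -0.46, SE 0.13), with edgeR adjusted p of 0.00535 and 0.0444. It was lost in each fit without treated replicate number 1, 2 or 3, with the larger adjusted p of the batches between 0.0514 and 0.463. Each such fit left out that well of every treatment and of media in both batches.

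The pair of lipase and inhibitor was also read as a ratio within each well, which can be compared between conditions but not read as a ratio of molecules, since probes differ. In vehicle the log2 ratio of G0s2 to Pnpla2 was 2.69 ± 0.188 (SD, n = 3) in batch 1 and 1.76 ± 0.148 (SD, n = 6) in batch 2. It was -4.77 ± 0.504 and -7.23 ± 0.461 (SD, n = 3 each) with 10000 µM caffeine, -3.76 ± 0.125 and -5.23 ± 0.443 with 10000 µM valproic acid, and -2.40 ± 0.161 and -2.75 ± 0.695 with 10000 µM acetaminophen. With WY14643, which raised both genes, it was 2.30 ± 0.250 and 1.97 ± 0.155 at 8 µM, ranges that overlapped those of vehicle in both batches. In media it was 3.64 ± 0.0837 and 2.86 ± 0.113, above every vehicle well.

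**Figure D3:**
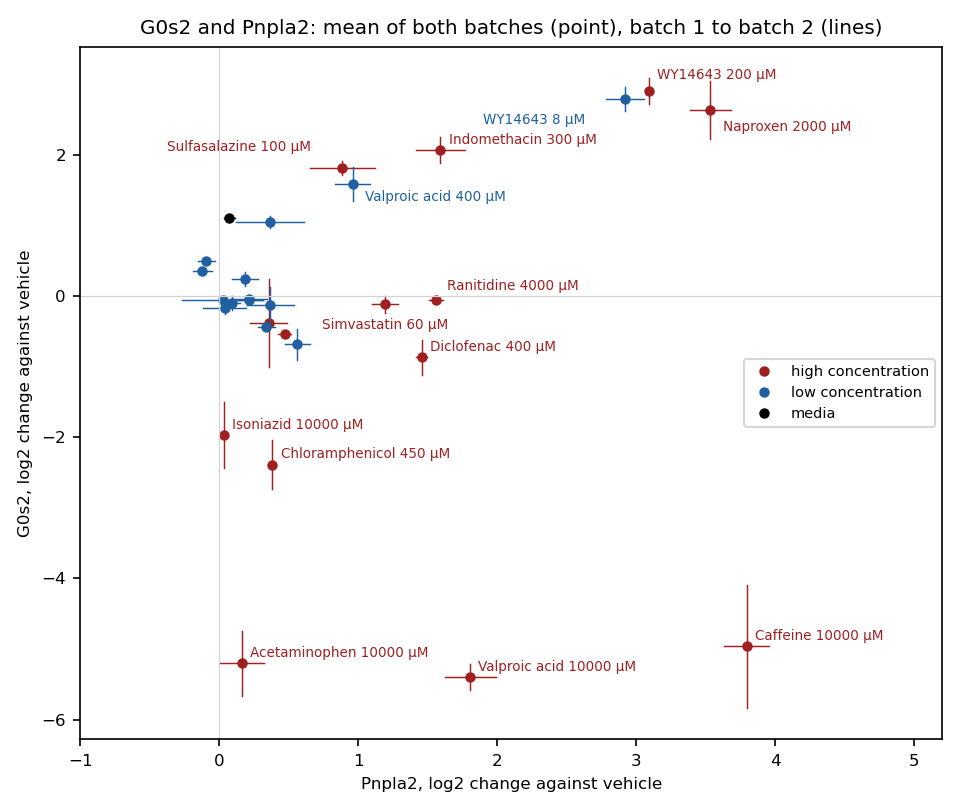
Log2 change against vehicle of Pnpla2 (horizontal axis) and G0s2 (vertical axis) in the WT assay, each point the mean of both batches for 1 treatment or media and the lines running from the batch 1 to the batch 2 value, with high concentrations in red, low concentrations in blue and media in black. Caffeine at 10000 µM lies at the lower right (3.63 and 3.96 for Pnpla2, -4.10 and -5.83 for G0s2), and both WY14643 concentrations lie at the upper right.

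Media wells were higher than vehicle wells in Plin2 and G0s2. Plin2 was at 509.5, 530.1 and 536 CPM in batch 1 and at 491 to 534 CPM (median 518) in batch 2, above all vehicle wells, with a change of 0.84 (SE 0.12) and 1.01 (SE 0.08). G0s2 was at 235, 239 and 247 CPM, and at 167 to 197 CPM (median 183), with 1.08 (SE 0.20) and 1.15 (SE 0.11). Vldlr changed by 0.51 (SE 0.14) and 0.92 (SE 0.12), with edgeR adjusted p of 0.051 and 3.3e-09, and was not called by edgeR in the WT assay but was called by DESeq2 and in the ST assay. Of 5 Kupffer cell and leukocyte markers 1 was higher in media, and the sum of all 8 was 90.8 and 88.1 CPM beside 70.9 and 67.8 CPM in vehicle. Adipocyte markers summed to 9.20 and 6.14 CPM beside 4.85 and 3.58 CPM, with no call for Adipoq, and no hepatocyte, stellate or cholangiocyte marker was called. Their part in the result was not tested. Thus the vehicle against which all treatments were read differed from media for these genes.

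High and low concentrations of a chemical were also compared with each other. Of 84 tests, 26 were called higher and 26 lower at the high concentration (31.0% each), against 11.3% and 11.6% of all genes. For WY14643 the only call was Fabp1, lower at 200 than at 8 µM by 0.88 (SE 0.20) and 1.02 (SE 0.23) on the log2 scale with edgeR adjusted p of 0.00315 and 0.00297. That call was lost without treated replicate 2 or 3 (larger adjusted p of the batches 0.139 and 0.0566). The other 5 members differed between the 2 concentrations of WY14643 by at most 0.32 in either batch, and these differences were not past the threshold. For valproic acid, 4 members were lower at 10000 than at 400 µM, with Fabp1 at -6.63 (SE 0.27) and -6.24 (SE 0.30), while Pnpla2 was higher by 0.79 (SE 0.23) and 0.91 (SE 0.24), a call that was lost without treated replicate 1 or 3.

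The levels of all 30 conditions were put in order for each gene, and a neighbour was counted as apart where its wells did not overlap in either batch. Of 29 pairs of neighbours, 6 were apart for Fabp1, 5 for Plin2, 4 for G0s2, 3 for Vldlr, 2 for Cidec, 1 for Pnpla2 and, in the ST assay, 4 for Cd36. Most neighbours in the order thus did not differ beyond the spread of their wells. In the WT assay, or for Cd36 the ST assay, WY14643 stood at the top for Fabp1, Cd36, Vldlr and G0s2, 2000 µM naproxen for Plin2 and Cidec, and 10000 µM caffeine for Pnpla2. The lowest condition was 10000 µM acetaminophen for Plin2, G0s2, Vldlr, Pnpla2 and Cd36, 4000 µM ranitidine for Fabp1 and 10000 µM caffeine for Cidec. In the ST assay the top was 2000 µM naproxen for G0s2 and 400 µM diclofenac for Vldlr, and the lowest was media for Pnpla2. For Pnpla2 the lowest place in the WT assay was on the CPM scale, where its wells overlapped vehicle in both batches.

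The 2 batches were compared by testing the difference of the change between them. The batches differed in the rat, in their libraries and in the sequencing run, and these cannot be told apart. Of 174 tests in the WT assay and 29 for Cd36, 16 (9.2%) and 6 (20.7%) had an adjusted p under 0.05, against 2.36% of all tests over the WT genes and 4.2% over the ST genes in the same 29 comparisons. The largest difference was that of Fabp1 at 4000 µM ranitidine, where the decrease was smaller in batch 2 by 4.26 (SE 0.52) on the log2 scale with edgeR adjusted p of 2.14e-10. For Cd36 at the same treatment the difference went the other way, by -2.31 (SE 0.65; adjusted p of 0.00566). At 0.08 µM doxorubicin, Fabp1 changed by -0.18 (SE 0.22) in batch 1 and by 1.38 (SE 0.21) in batch 2, and Cd36 by 0.13 (SE 0.27) and 1.33 (SE 0.26). Both differences between batches passed the threshold (adjusted p of 0.000482 for Fabp1 and 0.0431 for Cd36). The changes under 8 µM WY14643 did not differ between batches past the threshold for any of the 7 genes.

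**Figure D4:**
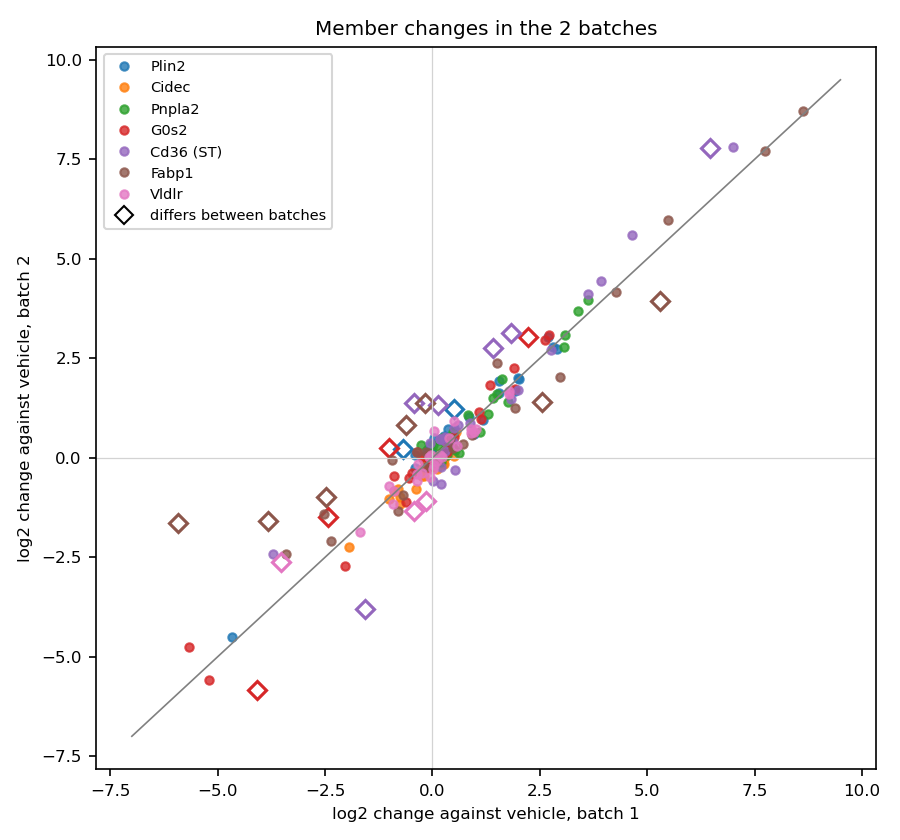
Log2 fold change against vehicle in batch 1 (horizontal axis) and batch 2 (vertical axis) for 6 members in the WT assay and Cd36 in the ST assay, each point a treatment or media and diamonds the points whose change differed between batches. Most points lie along the diagonal, and the farthest from it is Fabp1 with 4000 µM ranitidine at -5.93 and -1.65.

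Other genes of the same pathways were read from lists written from the known roles of the genes. Of 20 further genes of droplet and triglyceride turnover, 15 were tested, and 11 were higher and none lower at either concentration of WY14643 (29.9% and 29% of all genes called), with a median change of 1.03 at 8 µM beside -0.02 for all genes. The largest of them were Hilpda, a droplet protein that inhibits ATGL (4.44, SE 0.15, and 4.65, SE 0.12), the monoglyceride lipase Mgll (3.23, SE 0.23, and 3.00, SE 0.15), Fitm2, which helps droplets to form (2.96, SE 0.35, and 2.29, SE 0.23), and the droplet enzyme Hsd17b13 (2.02, SE 0.16, and 2.24, SE 0.15). At 10000 µM acetaminophen 3 of the 15 were higher and 8 lower (median -0.69), where 61.1% of all genes were called. One of the 3 was Abhd5, the activator of ATGL, at 3.43 (SE 0.13) and 3.26 (SE 0.10), and among the 8 was Gpam, which starts glycerolipid synthesis, at -3.92 (SE 0.21) and -4.46 (SE 0.23). At 10000 µM caffeine 7 were higher and 2 lower (42.2% of all genes called), and at 10000 µM valproic acid 4 and 6 (43%).

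Of 21 further genes of fatty acid uptake, binding and activation, 14 were tested, and 4 were higher and 1 lower at 8 µM WY14643 with a median of 0.10, a share near the 29.9% of all genes called. The risen genes were the acyl-CoA synthetase Acsl1 (5.88, SE 0.23, and 5.77, SE 0.15), the transporter Slc27a2 (3.42, SE 0.19, and 3.56, SE 0.15), the binding protein Fabp7 (3.13, SE 0.22, and 2.97, SE 0.16) and the receptor Lrp1 (2.05, SE 0.16, and 2.09, SE 0.11). At 10000 µM acetaminophen none of the 14 was higher and 7 were lower (median -0.72), a share no larger than the 61.1% of all genes called. Of 18 textbook PPARα targets, 16 were tested, and all 16 were higher with both concentrations of WY14643 (medians 4.10 and 4.03; 29.9% and 29% of all genes called) and with 400 µM valproic acid (median 2.05; 11.1%). The filter took the mean over all wells, so a target near 0 in vehicle passed it only through treated wells where it was high. Acot1 (0 to 1 counts per vehicle well) and Pdk4 (0 to 2) were such genes, and their calls as higher are no independent support. Of the same 16, 15 were higher with 2000 µM naproxen (29.2% of all genes called), 12 with 10000 µM valproic acid (43%) and 12 with 10000 µM caffeine, where 2 were lower (42.2%), and 3 were higher and 10 lower with 10000 µM acetaminophen (61.1%). Thus at 10000 µM of caffeine and valproic acid most of these targets were above vehicle while Fabp1 was below it. The summed hepatocyte markers were 38505 to 38716 CPM and 37815 to 39839 CPM with 8 µM WY14643, and the Kupffer cell and leukocyte markers 73.1 to 84.8 CPM and 53.3 to 65.7 CPM. With 200 µM WY14643 the hepatocyte markers summed to 31016 to 34085 CPM and 34870.0 to 35972 CPM, below every vehicle well of the batch (37449 to 40744 CPM and 40251 to 44829 CPM), although 2 of 7 were called higher and none lower. Their part in the results with WY14643 was not tested.

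The genes with the pattern most like each member were ranked by Pearson's r of log2(CPM + 1), centred on each batch, over all wells of both batches, which share vehicle, plates and depth. The closest to Fabp1 were Acadl (0.948), Cat (0.934) and Acadm (0.930), and the closest to Plin2 were Cmtm8 (0.920), Suclg1 (0.906) and Creb3l3 (0.879). Pnpla2 was nearest to Pdk4 (0.896), Tmem56 (0.851) and G6pc (0.839), and G0s2 to Slc16a4 (0.849), Pcyt2 (0.841) and Dhrs4 (0.823). Cidec and Vldlr had weaker neighbours, with Ociad2 at 0.790 for Cidec and G0s2 itself at 0.785 for Vldlr. Of the 15 pairs of members, r was 0.084 for G0s2 and Pnpla2, -0.127 for Cidec and Pnpla2 and between 0.327 and 0.785 for the other 13, and the sign for Cidec and Pnpla2 turned under Spearman's rho (0.068).

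The ST assay read the same lysates with a second library. Over all wells, r of log2 levels between assays was 0.903 for Cidec, 0.923 for Pnpla2, 0.944 for Vldlr, 0.952 for Fabp1, 0.976 for Plin2 and 0.989 for G0s2. Of 84 tests at the high concentrations, 61 were called in the WT and 54 in the ST assay, and 52 in both, all with the same sign. At the low concentrations both assays called 14, and 13 were shared. No member was called in opposite directions by the 2 assays in any comparison.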

How the data were processed

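TempO-Seq, in which pairs of detector oligos are ligated on their target RNA and sequenced, was run on lysates of 90 wells in batch 1 and 96 in batch 2 with a whole-transcriptome (WT, 22253 probes) and a surrogate (ST, 2654 probes) set. The authors aligned reads to the genome build rn6 with STAR 2.5.3a and deposited counts per probe and well with no normalization. From these counts, probes of a symbol were added, genes under a mean of 10 counts over the wells were left out, and edgeR 4.0.16 (R 4.3.3) was fitted with TMM factors and its quasi-likelihood test, 1 fit per batch with each condition as a group. P-values were adjusted by the Benjamini-Hochberg method over all genes, and a call needed 0.05 in both batches with 1 sign. The difference between batches was tested in a joint fit. Levels are CPM of the library total, and likeness was Pearson's r of log2(CPM + 1). The median depth was 6210462 WT reads per well in batch 1 and 7220136 in batch 2.

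All members were described, with every well for the called comparison of largest mean absolute change and for WY14643, and up to 3 genes most like each. The members and gene lists were chosen with earlier results of these data known. Groups came from the labels of chemical and dose, and replicate numbers only name wells in accession order. Alternatives were DESeq2 1.42.0, other scaling factors, no filter, a minimum change, joint fits with and without batch as a block, other vehicle wells, single probes, the ST assay and each replicate left out, and single batches, chosen after seeing the data. The steps were tested on simulated data.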

Additional observations from a re-analysis of the deposited data

Results flagged for a closer look

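Of 203 tests of whether a member's change differed between the 2 batches, 22 passed an adjusted p of 0.05 in edgeR. Values are the log2 change in batch 2 minus that in batch 1, and the rat, the libraries and the sequencing run of the batches cannot be told apart. For Fabp1 the difference was 4.26 with 4000 µM ranitidine, 2.25 with 10000 µM acetaminophen, 1.5 with 10000 µM caffeine, 1.55 and 1.43 with 0.08 and 2 µM doxorubicin, -1.14 with 300 µM indomethacin and -1.33 with 100 µM sulfasalazine. For Cd36 in the ST assay it was -2.31 with 4000 µM ranitidine, 1.74 and 1.16 with 2 and 0.08 µM doxorubicin, 1.33 with 60 µM simvastatin, 1.29 with 200 µM WY14643 and 1.22 with 300 µM indomethacin. For G0s2 it was -1.73 with 10000 µM caffeine, 1.25 with 15 µM ketoconazole, 0.95 with 10000 µM isoniazid and 0.81 with 2000 µM naproxen. Plin2 differed by 0.89 with 15 µM ketoconazole and by 0.73 with 10000 µM caffeine. Vldlr differed by -0.94 and -0.90 with 0.08 and 2 µM doxorubicin and by 0.90 with 10000 µM acetaminophen. In the 14 groups of 6 wells, no well stood apart from the others by Dixon's test.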

How the results depend on the processing

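No called change of a member reversed its direction under any alternative run. Of 150 calls, those of Cd36 in the ST assay included, 150 were kept with DESeq2, with size factors and with each probe by itself, 144 with library totals only, 146 with no filter, 102 with an absolute log2 change of at least 1, and 138 to 142 without a treated and 146 to 149 without a vehicle replicate. With that minimum change, decreases at high concentrations went from 27 to 15, increases in media from 2 to 1, and increases at high over low concentrations from 26 to 14. The single decrease at a low concentration, that of G0s2 with 2.4 µM simvastatin, became 0 with library totals only, with no filter, with the minimum change, with vehicle wells of the same plate and with only the wells of a comparison in the fit, 0 without a treated replicate and 0 to 1 without a vehicle replicate. In batch 1 alone 2 were lower and in batch 2 alone 3. The cause was not tested.

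The labels carry no replicate numbers, and the batch was the only block. With both batches in 1 fit and batch as replicate block, 38 of 84 member tests were higher and 32 lower at high concentrations, 19 and 3 of 84 at low concentrations, and 3 of 6 were higher in media, whereas with no replicate block 2 were lower at low concentrations. All 150 calls were kept with the block. Plin4 and Plin5 were below the count minimum and entered only the fit with no filter. In the ST assay 109 of 129 calls were kept, and 14 of the 20 lost were of Fabp1. The cause was not tested.

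Under Spearman's rho, at least 2 of the 3 most alike genes were kept for 1 of 6 members, and under pseudocounts of 0.5 and 5 for 6 of 6. The vehicle level on the log2 scale moved by more than the spread between wells for Vldlr with a pseudocount of 5.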
